A study of Mus musculus with 64 samples.

Results

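Acetylcholine acts on muscarinic receptors, which couple to G proteins, and on nicotinic receptors, which are ion channels, and it is broken down in the synapse by acetylcholinesterase. Levels of 8 listed genes of this system were looked up: the muscarinic receptor genes Chrm1, Chrm2, Chrm3 and Chrm4, the nicotinic subunit genes Chrna4, Chrna7 and Chrnb2, and Ache, which encodes acetylcholinesterase. All probe sets annotated to 1 of these symbols alone were taken, which gave 13 of the 45101 probe sets on the array, for 7 of the 8 genes. Levels of Chrm2 are not analysed here.

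The muscarinic receptors M1 and M3, products of Chrm1 and Chrm3, activate phospholipase C through Gq, while M2 and M4 lower cyclic AMP through Gi. The products of Chrna4 and Chrnb2 assemble into the main high-affinity nicotine binding receptor of the brain, and that of Chrna7 forms a calcium-permeable channel on its own. Cholinergic input to hippocampus and cortex comes mainly from neurons of the basal forebrain, so most mRNA for acetylcholine synthesis is made outside the regions studied here, while receptor mRNA is made in the neurons that receive the input.

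The mice were 4 months old, of the strain B6SJLF1, an F1 cross of C57Bl/6 and SJL. Tg2576 mice carry a transgene for human mutant amyloid precursor protein, and the wild-type mice were their littermates without it. The transgene of this line is driven by the hamster prion protein promoter. Subcutaneous minipumps delivered either vehicle or the PDE9A inhibitor PF-04447943 to mice of each genotype for 28 days. Hippocampus and prefrontal cortex, called frontal cortex in the design text, gave 8 groups of 8 arrays, 64 in all. Each group is named by its region, genotype and treatment. The labels do not say which arrays came from the same mouse, and p-values measure the spread between arrays, which may be technical.

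Levels are log2 values of the deposited intensities. They are relative to the probes of 1 probe set, so levels of different probe sets are not set against each other. Differences are on the log2 scale as well. A difference was called when its adjusted p from limma, corrected over all 27022 probe sets tested, was under 0.05. Tested probe sets had a mean at or above the 40th percentile of all non-control probe sets, which was 5.93 over both regions. The number of arrays limits the precision. With a total RNA extract of a dissected region, fewer cells of a type and less RNA per cell cannot be told apart.

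Marker genes set limits on the samples before any result. Dentate granule cell markers averaged 8.92 in hippocampus and 6.23 in prefrontal cortex, though Calb1 of that list went the other way (hippocampus minus prefrontal cortex -0.47). Markers of cortical projection neurons averaged 8.33 and 9.59, though Fezf2 (0.40) and Tshz2 (0.49) of that list were higher in hippocampus. The array labelled hippocampus Tg2576 PF-04447943 replicate 1 had a dentate marker level of 6.53, inside the prefrontal range of 5.95 to 6.62 and below the next hippocampal array at 8.37. Its cortical projection marker level of 9.25 was the highest of the hippocampal arrays and also inside the prefrontal range of 9.04 to 9.90. Striatal markers, of which 8 of 10 had a probe set, spanned 7.96 to 8.64 in hippocampus and 8.03 to 11.60 in prefrontal cortex, and 16 of 32 prefrontal arrays lay above the hippocampal range (4 wild-type vehicle, 5 Tg2576 vehicle, 3 wild-type PF-04447943 and 4 Tg2576 PF-04447943). Summed over the list, the striatal markers spanned 11.47 to 12.70 and 11.77 to 15.10, and Gpr6 was the one marker with a hippocampal mean under the filter level. The array labelled prefrontal cortex wild-type vehicle replicate 5 was the highest, at 11.60. Counts and selected results are given with and without these arrays, in runs added after the data were seen.

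Most cholinergic genes measured were called between the regions, as were most of all probe sets tested. In hippocampus minus prefrontal cortex, averaged over the 4 pairs of groups with 32 arrays a region, 10 of the 12 member probe sets tested were called, 7 of them higher in hippocampus and 3 lower. Over all probe sets tested, 68.3% were called, 31.4% higher and 36.9% lower, so most of the array was called along with the members. Chrm1, Chrna7 and Ache were higher in hippocampus, and Chrna4 was higher in prefrontal cortex. The median size of the difference was 0.38 among the 12 member probe sets and 0.16 over all probe sets tested.

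**Figure D1:**
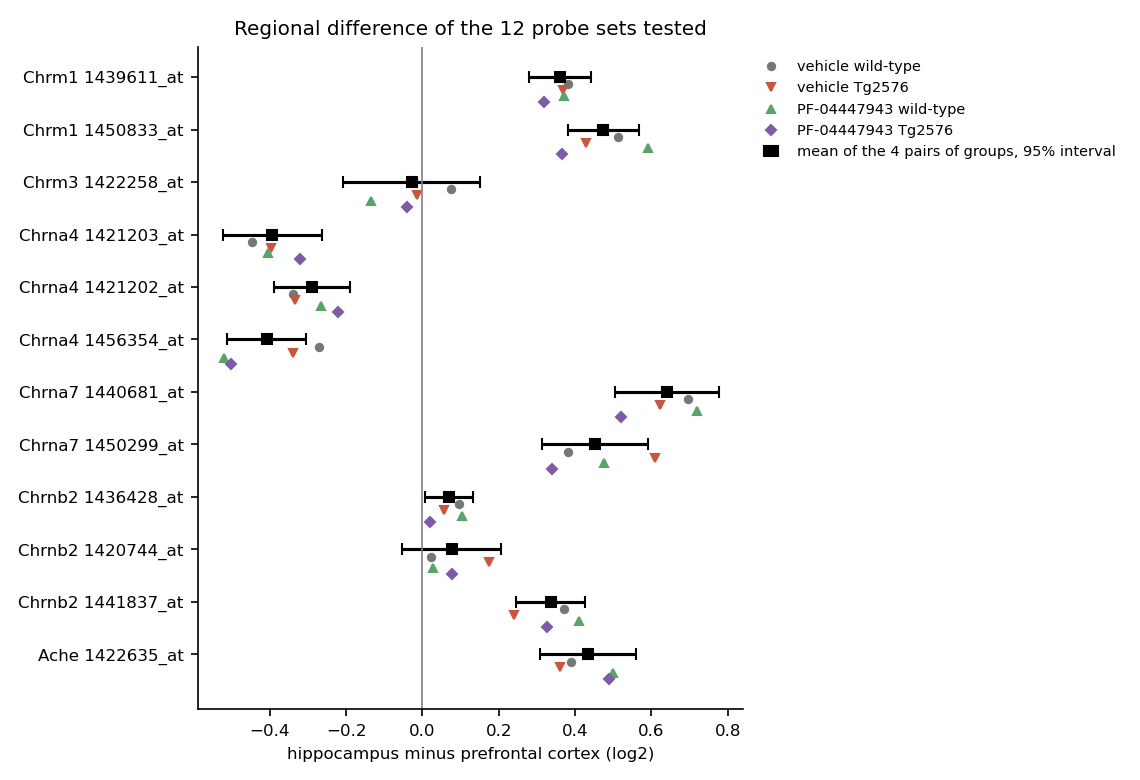
Hippocampus minus prefrontal cortex (log2, x axis) for the 12 member probe sets tested (y axis). Black squares with bars give the mean of the 4 pairs of groups and its 95% interval, and coloured marks give each pair of groups; Chrm1, Chrna7 and Ache lie right of 0 in every pair, Chrna4 left of 0 in every pair, and Chrm3 on both sides.

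Chrm1, which encodes the main muscarinic receptor of forebrain pyramidal neurons, was measured by 2 probe sets. By 1439611_at, the hippocampal arrays spanned 10.38 to 11.24 with a median of 10.99, and the prefrontal arrays spanned 10.27 to 10.80 with a median of 10.64. On the deposited scale these medians correspond to intensities of 2028 and 1590.4. The ranges overlapped, yet 31 of the 32 hippocampal arrays lay above the prefrontal mean. The difference was 0.36 ± 0.04 (SE, n = 32 a region), 1.28-fold, with an adjusted p of 1.18e-11. The other probe set, 1450833_at, gave 0.47 ± 0.05 with an adjusted p of 9.34e-14. The group means of 1439611_at ran from 10.88 ± 0.27 to 11.01 ± 0.15 (SD, n = 8) in hippocampus and from 10.56 ± 0.16 to 10.64 ± 0.10 in prefrontal cortex. All 4 hippocampal groups therefore stood above all 4 prefrontal groups, and neighbours in the order within a region were closer than their spread.

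Chrm3, the gene of the other Gq-coupled receptor measured, had the same mean in both regions within error. Its hippocampal arrays spanned 6.22 to 7.55 with a median of 7.15, and its prefrontal arrays spanned 5.94 to 7.81 with a median of 7.14. The difference was -0.03 ± 0.09, with a 95% interval of -0.21 to 0.15 and an adjusted p of 0.79. The 8 group means ran from 6.98 ± 0.47 in prefrontal cortex of vehicle wild-type mice to 7.25 ± 0.44 in prefrontal cortex of vehicle Tg2576 mice. No neighbours in the order of groups differed beyond their spread, and the regions were mixed in it.

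Chrm4, the Gi-coupled receptor gene best known from the striatum, was dim. Its hippocampal arrays spanned 4.92 to 6.39 with a median of 5.72, and its prefrontal arrays spanned 5.37 to 7.04 with a median of 6.01. Of the 32 arrays, 22 in hippocampus and 11 in prefrontal cortex lay below the filter level of their region, so Chrm4 was tested within prefrontal cortex only. With no filter on low values, where 55.5% of all probe sets were called and 26.7% were lower in hippocampus, Chrm4 differed by -0.30 ± 0.09 with an adjusted p of 0.00338, again lower in hippocampus. Groups overlapped throughout, with means from 5.59 ± 0.33 in hippocampus of wild-type mice given PF-04447943 to 6.19 ± 0.43 in prefrontal cortex of vehicle Tg2576 mice.

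Chrna4 encodes the alpha4 subunit and was the one member gene called lower in hippocampus. By 1421203_at, hippocampal arrays spanned 7.10 to 8.23 with a median of 7.54, and prefrontal arrays spanned 7.55 to 8.32 with a median of 8.06. The hippocampal arrays were spread widely, with an SD of 0.32 against 0.16, and their upper arrays reached the prefrontal median. The difference was -0.39 ± 0.06, 1.31-fold higher in prefrontal cortex, with an adjusted p of 3.22e-07. The other 2 probe sets gave -0.29 ± 0.05 (1421202_at, adjusted p 9.7e-07) and -0.41 ± 0.05 (1456354_at, adjusted p 4e-10). The 4 prefrontal group means, 7.99 ± 0.21 to 8.07 ± 0.15, all stood above the 4 hippocampal ones, 7.54 ± 0.38 to 7.75 ± 0.35, and the gap between the regions in that order was 0.85 SD.

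Chrnb2 encodes the beta2 subunit, the usual partner of alpha4, and its 3 probe sets did not give one answer. By the brightest, 1436428_at, hippocampal arrays spanned 7.88 to 8.45 and prefrontal arrays 7.97 to 8.44, with medians of 8.22 and 8.13. The difference of 0.07 ± 0.03 had an adjusted p of 0.0491, and leaving out 1 array ended the call in 39 of 64 cases, with values from 0.06 to 0.08 and adjusted p up to 0.0776. By 1420744_at the difference was 0.08 ± 0.07 with an adjusted p of 0.298. By 1441837_at it was 0.34 ± 0.05 with an adjusted p of 2.88e-09, but 22 of the 32 prefrontal arrays of that probe set lay below the filter level. The called Chrnb2 differences had the opposite sign to those of Chrna4. However, that of 1436428_at lost its call in most runs with 1 array left out. That of 1441837_at rests on prefrontal values mostly below the filter level. Opposite regional directions of Chrna4 and Chrnb2 were therefore not established, and no test was made of their ratio.

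Chrna7, which encodes the alpha7 subunit, had the largest regional difference of the members. Windows of 250 bases before the RefSeq start of Chrna7, Ache and Chrna4, in build GRCm38.p6, are shown because these genes carried regional differences in both directions. The Chrna7 window is chr7:63212527-63212776 on the minus strand, the Ache window chr5:137288004-137288253 on the plus strand and the Chrna4 window chr2:181039178-181039427 on the minus strand. Capitals mark matches on either strand to the GC box GGGCGG, or to the motif GCGNGGGCG bound by Egr factors, and the motifs can overlap.
Chrna7: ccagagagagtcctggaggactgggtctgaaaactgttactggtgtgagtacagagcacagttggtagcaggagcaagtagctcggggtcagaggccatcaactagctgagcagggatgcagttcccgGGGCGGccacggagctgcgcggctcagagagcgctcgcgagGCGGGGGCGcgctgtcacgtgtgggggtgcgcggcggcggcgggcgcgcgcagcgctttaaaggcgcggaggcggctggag
Ache: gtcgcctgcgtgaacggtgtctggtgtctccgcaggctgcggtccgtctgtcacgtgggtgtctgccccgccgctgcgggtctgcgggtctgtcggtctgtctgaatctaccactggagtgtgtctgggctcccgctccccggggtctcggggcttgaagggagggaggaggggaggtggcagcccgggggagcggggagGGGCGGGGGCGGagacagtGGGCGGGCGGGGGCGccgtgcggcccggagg
Chrna4: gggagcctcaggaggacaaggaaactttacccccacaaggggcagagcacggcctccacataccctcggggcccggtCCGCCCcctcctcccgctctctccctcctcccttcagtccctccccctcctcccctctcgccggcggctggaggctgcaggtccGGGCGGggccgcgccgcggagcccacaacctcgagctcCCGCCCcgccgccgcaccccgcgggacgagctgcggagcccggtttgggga
Of the 8 listed genes, 7 had a window: all but Chrm1, with Chrm2 included. The GC box was found in 5 of these 7 (Ache, Chrm2, Chrm4, Chrna4 and Chrna7) and in 32.7% of all 32851 windows of this length. The Egr motif was found in Ache with 2 matches and in Chrna7 with 1, and in 4.7% of all windows. The E-box CANNTG, which is not capitalised, was in 4 of the 7 and in 66.2% of all windows. The cyclic AMP response element TGACGTCA was in 0 of the 7 and in 1.55% of all windows. A match describes these letters and no binding.

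By 1440681_at, Chrna7 spanned 8.21 to 10.05 in hippocampus with a median of 9.59, and 8.43 to 9.24 in prefrontal cortex with a median of 8.90. The lowest hippocampal value, 8.21, came from the array labelled hippocampus Tg2576 PF-04447943 replicate 1, which lay below every prefrontal array. The difference was 0.64 ± 0.07, 1.56-fold, with an adjusted p of 1.72e-12. Its size exceeded that of 92.9% of all probe sets tested. Without the 2 arrays that stood apart it was 0.68 ± 0.05 and the ranges still overlapped, from 8.88 in hippocampus to 9.24 in prefrontal cortex. The other probe set, 1450299_at, gave 0.45 ± 0.07 with an adjusted p of 6.75e-08. Group means of 1440681_at ran from 9.48 ± 0.56 to 9.62 ± 0.08 in hippocampus and from 8.80 ± 0.22 to 8.96 ± 0.19 in prefrontal cortex, with a gap of 1.25 SD between the regions.

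Ache was higher in hippocampus as well. Its hippocampal arrays spanned 8.47 to 9.46 with a median of 9.14, and its prefrontal arrays spanned 8.22 to 9.53 with a median of 8.63. The highest of all 64 values, 9.53, was a prefrontal one, that of wild-type vehicle replicate 5, the array highest in striatal markers. The difference was 0.43 ± 0.06, 1.35-fold, with an adjusted p of 1.43e-08, and 29 of 32 hippocampal arrays lay above the prefrontal mean. Without the 2 arrays that stood apart it was 0.46 ± 0.06. Group means ran from 9.01 ± 0.25 to 9.23 ± 0.16 in hippocampus and from 8.59 ± 0.17 to 8.74 ± 0.28 in prefrontal cortex, and the gap between the regions in that order was 1.04 SD.

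**Figure D2:**
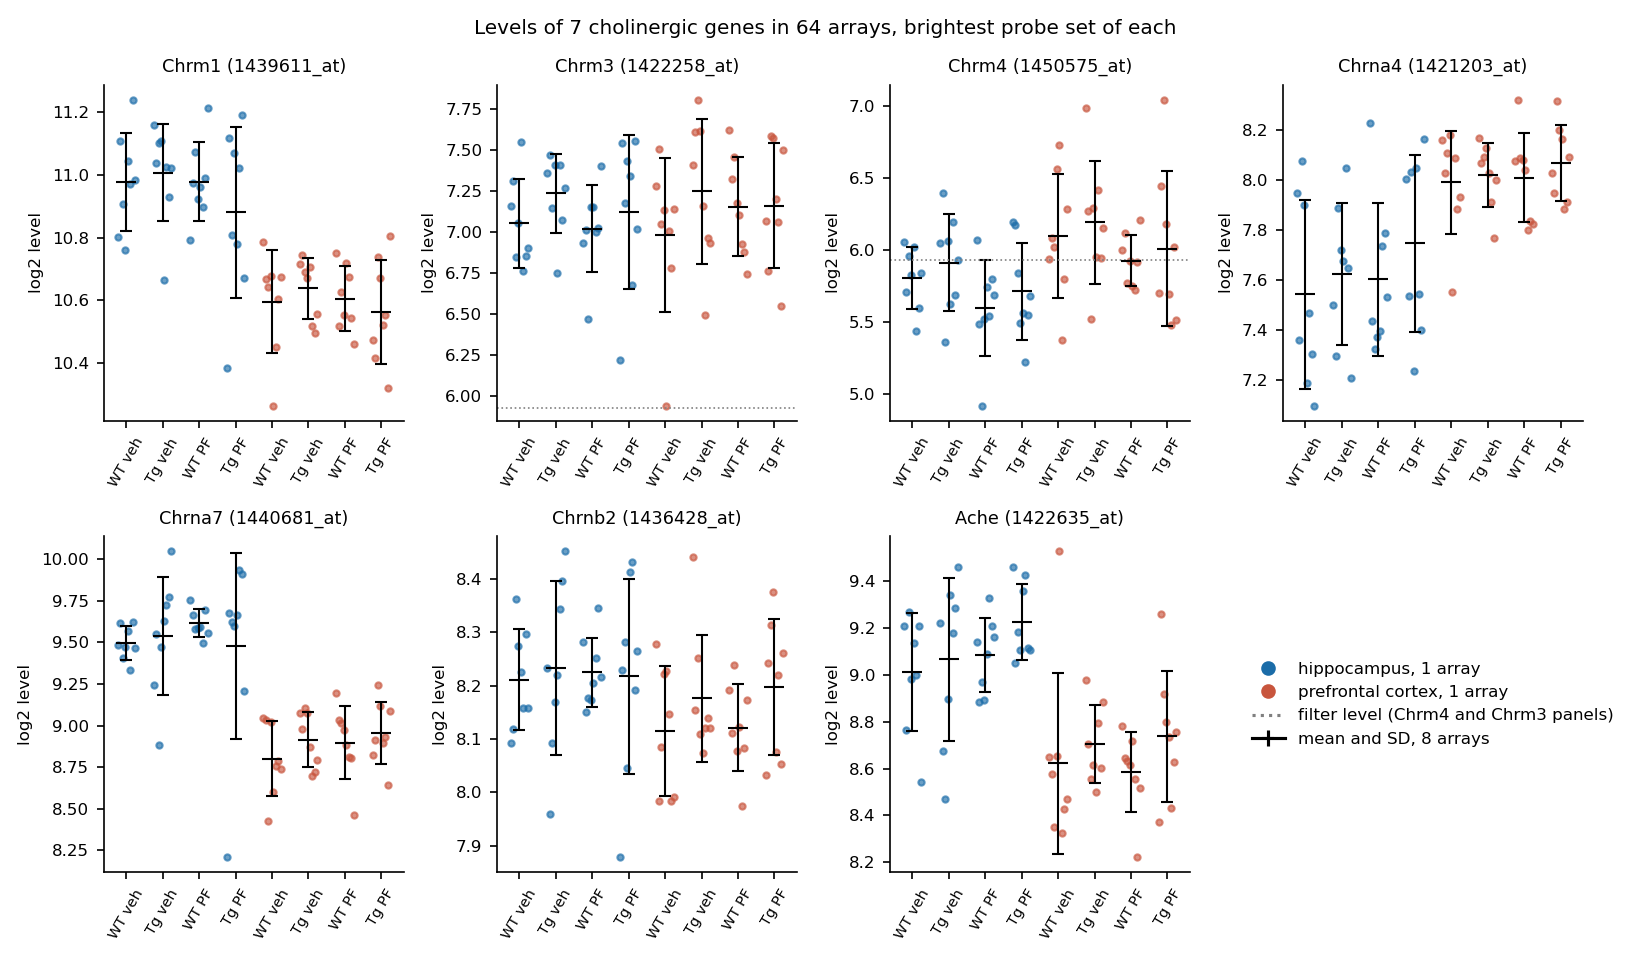
Log2 level (y axis) of the brightest probe set of each of the 7 genes in every array, by group (x axis; WT wild-type, Tg Tg2576, veh vehicle, PF PF-04447943). Points are arrays, black bars the mean and SD of 8 arrays, and the dotted line the filter level; hippocampal Chrm1, Chrna7 and Ache sit mostly above prefrontal levels, Chrna4 below, and the lowest hippocampal point of Chrm1 (10.38) and Chrna7 (8.21) is one array.

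None of the 12 regional ranges was free of overlap, and 1.58% of all probe sets tested had ranges that did not overlap. Without the 2 arrays that stood apart the members still all overlapped, against 3.99% without overlap over all probe sets. The regional difference had the same sign in all 4 pairs of groups for 11 of the 12 probe sets, the exception being Chrm3. Within single pairs, 9 of 12 were called in vehicle wild-type mice (40.5% of all probe sets), 9 in vehicle Tg2576 (49.6%), 9 in wild-type given PF-04447943 (38.6%) and 8 in Tg2576 given PF-04447943 (37.8%). Without the 16 prefrontal arrays above the hippocampal striatal range, 9 of the 12 were called in the averaged comparison, against 66.8% of all probe sets. The call lost was Chrnb2 1436428_at, at 0.02 with an adjusted p of 0.606, while Chrna7 kept 0.58, Ache 0.45 and their calls.

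The regional differences were not the same in all arrays of a region. In prefrontal cortex, arrays with replicate numbers 1 to 4 deviated together and apart from those numbered 5 to 8 (mean correlation of deviations 0.24 within a set and -0.24 between sets), and the labels do not say what the numbers mark. The regional difference in numbers 5 to 8 minus that in numbers 1 to 4, a test added after the data were seen, was called for 5 of the 12 member probe sets, against 53.7% of all probe sets. Chrna7 1440681_at differed by 0.42 between regions in numbers 1 to 4 and by 0.86 in numbers 5 to 8 (difference 0.44 ± 0.13, adjusted p 0.00319). Chrm3 turned from -0.27 to 0.21 (0.48 ± 0.16, adjusted p 0.0101), with prefrontal means of 7.37 ± 0.28 and 6.90 ± 0.36 (SD, n = 16) and hippocampal means of 7.11 in both sets. Chrnb2 1441837_at went from 0.16 to 0.51 (0.36 ± 0.08, adjusted p 0.000226), and Chrna4 1456354_at from -0.55 to -0.27 (0.29 ± 0.09, adjusted p 0.0074). Chrnb2 1436428_at went from -0.037 to 0.17 (0.21 ± 0.06, adjusted p 0.00194). The differences of Chrm1, Chrna7, Ache and Chrna4 kept their sign in both sets. The arrays that stood apart were kept in this comparison. Hippocampus Tg2576 PF-04447943 replicate 1, with Chrna7 1440681_at at 8.21, is in numbers 1 to 4. Prefrontal cortex wild-type vehicle replicate 5, with Chrm3 at 5.94, is in numbers 5 to 8. The change between sets was not tested without them.

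**Figure D3:**
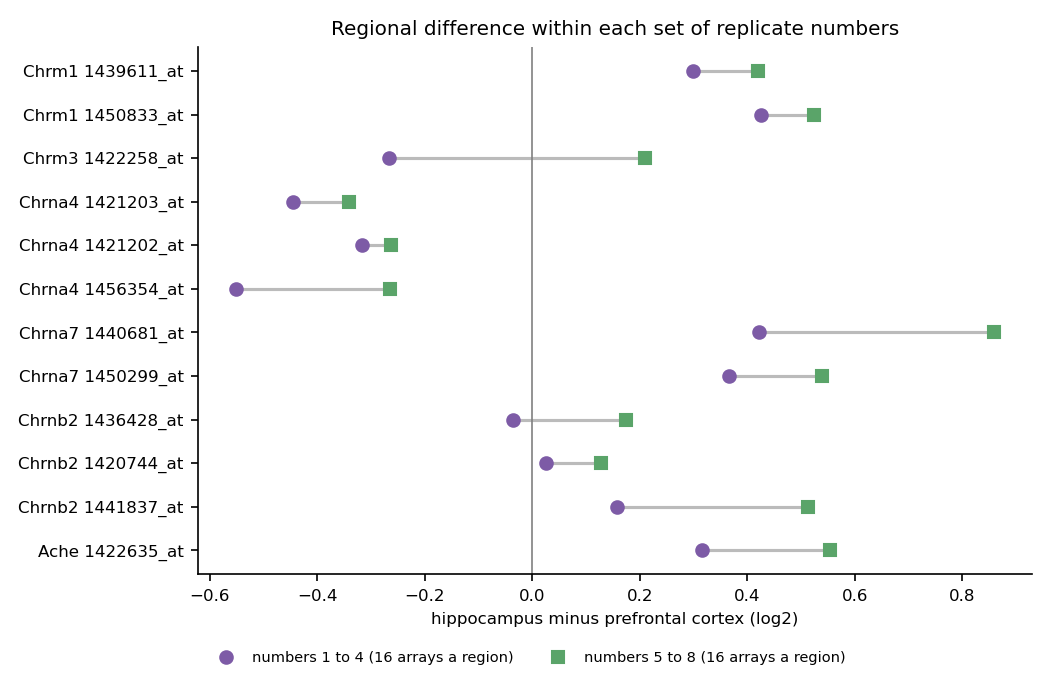
Hippocampus minus prefrontal cortex (log2, x axis) for each probe set tested (y axis), computed within arrays numbered 1 to 4 (circles) and 5 to 8 (squares), 16 arrays a region each. Chrm3 moved from -0.27 to 0.21 across 0, and Chrna7 1440681_at from 0.42 to 0.86.

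The transgene was compared to ask whether human mutant amyloid precursor protein changed cholinergic gene levels at this age. In hippocampus, 0 of 12 member probe sets were called for Tg2576 against wild-type over both treatments by limma, 0 had an unadjusted p under 0.05, and of all probe sets 0.0962% were called and 7.42% had such an unadjusted p. Differences ran from -0.05 for Chrna7 1440681_at to 0.17 for Chrnb2 1420744_at. For Chrm1 1439611_at the group values were 10.98 and 10.97 in wild-type mice and 11.03 and 10.91 in Tg2576 mice (medians under vehicle and drug). Its difference was -0.03 ± 0.06 (n = 16 a genotype), with an interval of -0.17 to 0.10. Ache differed by 0.10 ± 0.08, with an interval of -0.07 to 0.27.

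In prefrontal cortex, 0 of 12 were called for the transgene, against 0.0259% of all probe sets, and 1 had an unadjusted p under 0.05, against 11.3%. The 12 include Chrm4 and leave out Chrnb2 1441837_at, which was under the prefrontal filter level. The one was Chrm1 1450833_at, with medians of 8.71 and 8.74 in wild-type mice and 8.88 and 8.83 in Tg2576 mice under vehicle and drug. Its difference was 0.13 ± 0.06 with an adjusted p of 0.409, while the other Chrm1 probe set gave -0.001 with an interval of -0.10 to 0.10. The 12 differences under vehicle were all above 0, with a median of 0.08 beside a median of 0.04 over all probe sets tested. Chrm3 had the largest of them, 0.27 ± 0.19 (adjusted p 0.596). The wild-type vehicle group holds replicate 5, an array that stood apart, with Chrm3 at 5.94 and Chrna4 1421203_at at 7.55. By medians, Chrna4 1421203_at was 8.06 in wild-type and 8.05 in Tg2576 mice under vehicle, the other direction. Chrm3 medians were 7.09 and 7.28. The signs and sizes of these differences thus depend in part on that array. The difference of the transgene effect between regions was called for 0 of 12 probe sets, with 0 at an unadjusted p under 0.05. Over all probe sets 0% were called and 6.09% had such an unadjusted p.

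PF-04447943 raises cyclic GMP by blocking PDE9A, and the drug groups asked whether 28 days of it changed these genes. In hippocampus, where 2.18% of all probe sets were called, 0 of 12 members were called over both genotypes, and 1 had an unadjusted p under 0.05, against 20.9%. That was Chrna4 1456354_at, which differed by -0.12 ± 0.06 with an adjusted p of 0.229, while the brighter Chrna4 probe sets gave 0.09 and 0.08. Ache differed by 0.12 ± 0.08 with an interval of -0.05 to 0.28, and Chrna7 1440681_at by 0.03 ± 0.11 with an interval of -0.20 to 0.26. In prefrontal cortex 0 of 12 members were called, 0 had an unadjusted p under 0.05 by limma, and of all probe sets 0% were called and 2.26% had such an unadjusted p. The largest difference there was that of Chrm4, -0.18 ± 0.14, with an interval of -0.46 to 0.11.

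The remaining tests of treatment gave no calls among the members. In each genotype or treatment taken alone, and in the drug by genotype interaction, 0 of 12 were called in either region, with 0 at an unadjusted p under 0.05. Of these 10 comparisons, hippocampal transgene under vehicle had 0.0111% of all probe sets called, hippocampal drug in wild-type had 0.0037%, and the others had 0%. Over all probe sets the share at an unadjusted p under 0.05 in hippocampus was 6.11% and 4.69% for the transgene under vehicle and drug, 10.7% and 15% for the drug in Tg2576 and wild-type, and 3.43% for the interaction. In prefrontal cortex it was 10.8% and 3.39%, 2.93% and 2.43%, and 3.06%, in the same order. The drug effect by region had 0 of 12 called and 0 at an unadjusted p under 0.05, against 0.0296% and 9.09%. In simulated data for the hippocampal drug comparison over both genotypes, with 16 arrays against 16, 52% of changes of 0.25 and 94% of changes of 0.5 were recovered. The simulated arrays were drawn independently, with 100 probe sets changed at each size, and 9.32% of the calls were false. Comparisons of 8 arrays against 8 and the interactions were not simulated. Leaving out the 2 arrays that stood apart left all of these counts at 0.

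**Figure D4:**
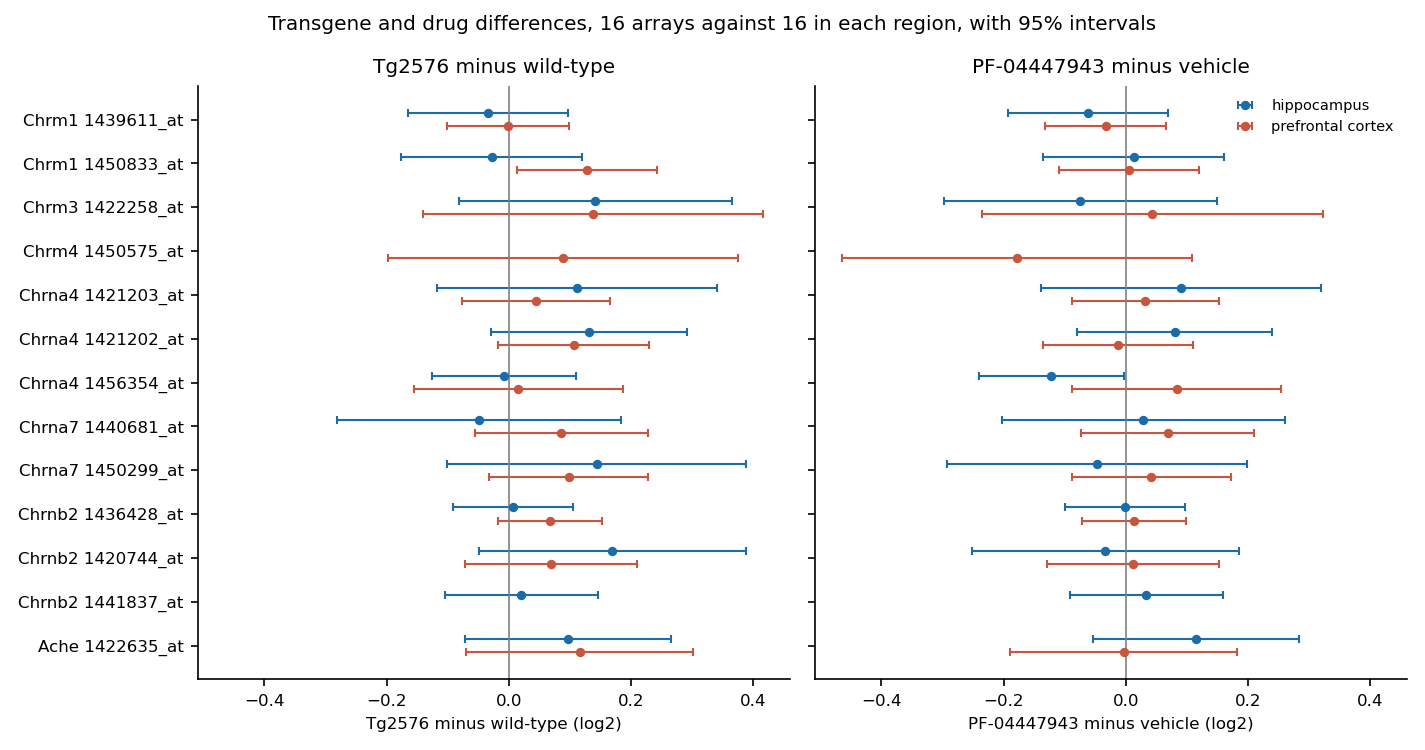
Differences (log2, x axis) of the member probe sets (y axis) for Tg2576 minus wild-type (left) and PF-04447943 minus vehicle (right), in hippocampus (blue) and prefrontal cortex (red), with 95% intervals over 16 arrays against 16. Nearly all intervals include 0; those of prefrontal Chrm1 1450833_at (0.13) and hippocampal Chrna4 1456354_at (-0.12) do not, and neither passed the adjusted threshold.

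Genes of acetylcholine synthesis and transport were near the bottom of the scale. Chat, the enzyme that makes acetylcholine, had means of 5.13 ± 0.18 in hippocampus and 5.09 ± 0.23 in prefrontal cortex (SD, n = 32). Slc18a3, the vesicular transporter, had 5.39 ± 0.16 and 5.53 ± 0.30, and Slc5a7, the choline transporter, 4.27 ± 0.23 and 4.40 ± 0.39. All 3 lay below the filter level and were not tested. The highest Slc5a7 value, 6.10, was a prefrontal one. Bche, which encodes butyrylcholinesterase, had 6.19 ± 0.22 and 6.06 ± 0.31, a difference of 0.13 ± 0.07 with an adjusted p of 0.0822; without the 16 prefrontal arrays high in striatal markers it was 0.23 with an adjusted p of 0.00424. Of this list of 6, 2 were tested and 0 were called, against 68.3% called over all probe sets. The median difference was 0.09 beside -0.02 over all probe sets. The other gene tested, Prima1, which encodes the membrane anchor of acetylcholinesterase, gave 0.05 ± 0.04 (adjusted p 0.313). Without the 16 prefrontal arrays it gave 0.12 (adjusted p 0.012), so that both genes tested were then called higher. In that run 66.8% of all probe sets were called in either direction, so these calls do not set the genes apart.

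Among 14 other receptor subunit genes, 12 had a probe set and 3 passed the filter, and 2 of those were called higher in hippocampus and 0 lower, against 68.3% called over all probe sets, with a median of 0.11. They were Chrna6, which differed by 0.12 ± 0.05 (adjusted p 0.0311), and Chrnd, a subunit gene of the muscle receptor, by 0.11 ± 0.04 (adjusted p 0.0133). Chrna6 lost its call without the 2 arrays that stood apart, at 0.11 with an adjusted p of 0.0557, and without the 16 prefrontal arrays high in striatal markers, at 0.13 with 0.0662.

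Genes of proteins that help nicotinic receptors fold or that bind them at the membrane differed in mRNA level in both directions. Of 8 such genes, all tested, 3 were called higher in hippocampus and 3 lower, against 68.3% called over all probe sets, with a median of -0.002. Lypd1, a Ly6 protein that binds nicotinic receptors, was higher by 0.79 ± 0.07, Ly6h by 0.64 ± 0.06 and Ric3, a chaperone of alpha7 receptors, by 0.23 ± 0.05. Lypd6b differed by -0.98 ± 0.11, Lypd6 by -0.57 ± 0.06 and Lynx1 by -0.31 ± 0.04. Adjusted p ranged from 2.32e-15 for Ly6h to 1.46e-05 for Ric3. The counts of 3 and 3 held without the 16 prefrontal arrays high in striatal markers, against 66.8% of all probe sets called.

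Signalling genes downstream of the muscarinic receptors were called in both directions. Beside the counts that follow, 31.4% of all probe sets were called higher and 36.9% lower. Of 11 genes of the Gq branch, 9 were tested, 3 were called higher and 5 lower, with a median of -0.09. Prkca, a protein kinase C, was higher by 0.55 ± 0.05, Gnaq by 0.36 ± 0.03 and Gna11 by 0.10 ± 0.02, while Plcb4, a phospholipase C, differed by -1.72 ± 0.08, Rgs4 by -1.44 ± 0.07 and the M-current channel gene Kcnq5 by -0.62 ± 0.06. Of 11 genes of the Gi branch, all tested, 4 were called higher and 5 lower, with a median of -0.09. Gnai2 was higher by 0.61 ± 0.03, Gnao1 by 0.44 ± 0.03 and the potassium channel gene Kcnj6 by 0.41 ± 0.09, while Kcnj9 differed by -0.98 ± 0.11, Rgs9 by -0.82 ± 0.21 and the adenylyl cyclase gene Adcy5 by -0.49 ± 0.11. Rgs9 is itself one of the striatal markers. Without the 16 prefrontal arrays high in striatal markers, Rgs9 gave 0.12 (adjusted p 0.297) and Adcy5 -0.03 (adjusted p 0.615). In that run 3 genes of the Gi branch were called in each direction, against 66.8% of all probe sets called in either. No gene of these 5 lists was called in any transgene or drug comparison.

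Within groups, some member levels correlated with the levels of cell type markers, and the cause of these correlations was not tested. Each array's marker level was the mean log2 level of a list. Correlations were taken over the 32 arrays of a region after removing group means, a test added after the data were seen. Of 154 relations in all, 41 passed an adjusted permutation p of 0.05. In hippocampus, Chrna4 followed markers of cortical projection neurons with r = 0.84 and rho = 0.85 (permutation, adjusted p 0.000385 for both). Without the 2 arrays farthest from the median it was 0.85, and within numbers 1 to 4 and 5 to 8 it was 0.88 and 0.85. Hippocampal Chrna4 also rose with thalamic markers (r = 0.58, rho = 0.65) and fell with dentate markers (r = -0.57, rho = -0.65), with r = 0.71 and -0.73 without the 2 farthest arrays; within numbers 1 to 4 and 5 to 8 these were 0.36 and 0.75, and -0.71 and -0.42. Choroid plexus markers, which spanned 6.09 to 10.76 in hippocampus, gave r = -0.34 with Chrna4 (adjusted p 0.174).

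Chrm1 had relations of opposite sign in the regions, and that difference was not tested. Against cortical projection markers it had r = -0.69 and rho = -0.65 in hippocampus (permutation, adjusted p 0.00269 and 0.00616) and r = 0.80 and rho = 0.77 in prefrontal cortex (adjusted p 0.000385 for both). Without the 2 farthest arrays these were -0.54 and 0.78. Within numbers 1 to 4 and 5 to 8 they were -0.78 and -0.60 in hippocampus and 0.79 and 0.80 in prefrontal cortex. In hippocampus Chrm1 rose with markers of CA pyramidal cells (r = 0.76, rho = 0.66, adjusted p 0.000856 and 0.0021; 0.60 without the 2 farthest). Within the sets of numbers it was 0.76 and 0.79. Chrm3 had the same sign (r = 0.69, rho = 0.60, adjusted p 0.00643 and 0.00616; 0.45 without the 2 farthest), with 0.90 in numbers 1 to 4 and 0.40 in 5 to 8. In prefrontal cortex, Chrm3 and Chrna7 also rose with cortical projection markers, with r = 0.76 and 0.72 and rho = 0.69 and 0.68. In numbers 1 to 4 these were r = 0.50 and 0.47, and in 5 to 8 0.79 and 0.92. Hippocampal Chrna7 had r = 0.62 with dentate markers but 0.08 without the 2 farthest arrays, so that relation rests on those arrays.

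Ache in hippocampus followed markers of inhibitory neurons, with r = 0.71 and rho = 0.75 (permutation, adjusted p 0.000385 for both), 0.74 without the 2 farthest arrays and 0.81 and 0.58 within the sets of numbers. In prefrontal cortex the same relation had r = 0.29 (adjusted p 0.175), with 0.64 in numbers 1 to 4 and -0.09 in 5 to 8, and the difference between the regions was not tested. Prefrontal Ache rose with astrocyte markers (r = 0.61, rho = 0.57, adjusted p 0.00693 and 0.00796), as did Chrm4 (r = 0.66, rho = 0.68, adjusted p 0.000856 for both). In numbers 1 to 4 and 5 to 8 these were 0.53 and 0.80 for Ache and 0.62 and 0.83 for Chrm4. Chrm4 lay below the filter level in 11 of the 32 prefrontal arrays. Prefrontal Chrnb2 rose with inhibitory markers (r = 0.72, rho = 0.68, adjusted p 0.00066 and 0.000856), with r = 0.85 in numbers 1 to 4 and 0.37 in 5 to 8. Against striatal markers taken alone, a family of 14 relations, 1 passed, that of hippocampal Chrm1 (r = -0.58, permutation, adjusted p 0.0343). Its rho was -0.43 (adjusted p 0.0887), with r = -0.45 without the 2 farthest and -0.86 and -0.26 in the sets of numbers. The same relations were also among all marker relations. In that larger family hippocampal Chrm1 (adjusted p 0.014), prefrontal Chrm1 (r = -0.48, adjusted p 0.0362) and prefrontal Chrm3 (r = -0.46, adjusted p 0.0496) passed. By rho none of these passed there (adjusted p 0.0665, 0.0826 and 0.151). Without the 2 farthest arrays the prefrontal r were -0.33 and -0.21. The part of these cell types in the regional differences was not tested.

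**Figure D5:**
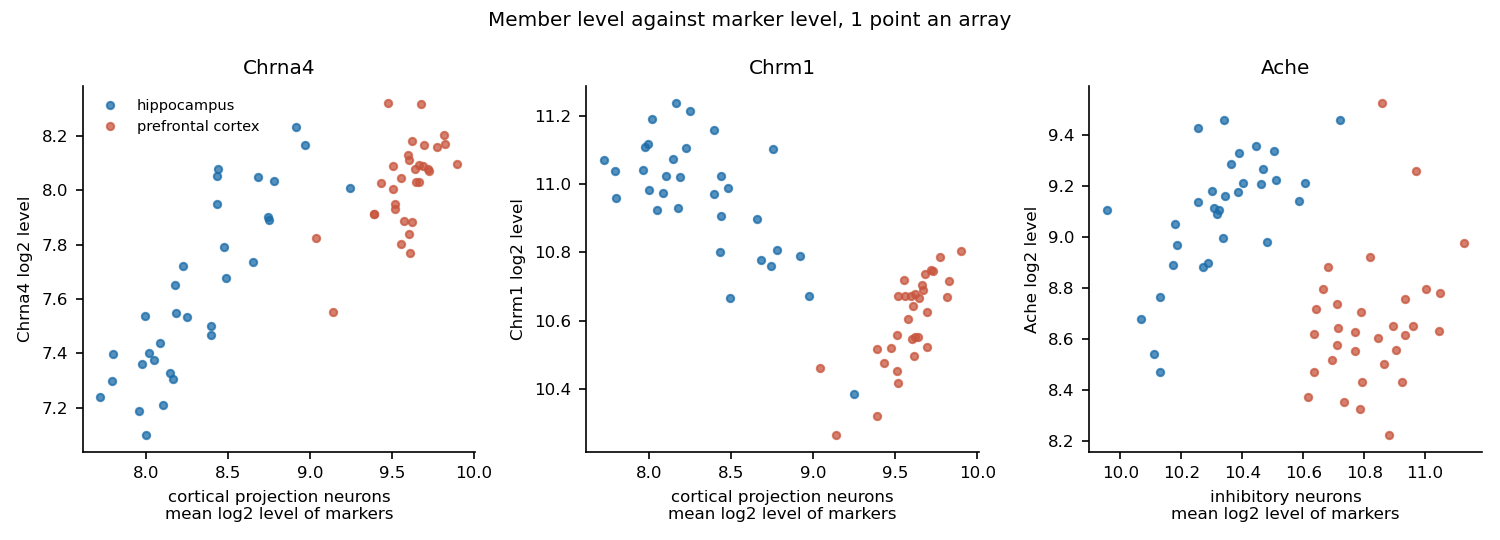
Log2 level of Chrna4, Chrm1 and Ache (y axes) against the mean log2 level of marker genes (x axes), 1 point an array, hippocampus in blue and prefrontal cortex in red, group means not removed. Hippocampal Chrna4 climbs toward prefrontal levels as cortical projection markers rise (r = 0.84 within groups), Chrm1 falls with them in hippocampus and rises in prefrontal cortex, and hippocampal Ache rises with inhibitory markers (r = 0.71).

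Members were also compared with each other over the 64 arrays after removing group means. Probe sets of one gene correlated in 6 of 8 pairs, with r = 0.73 for the 2 of Chrm1, 0.52 for the 2 of Chrna7 and 0.41 to 0.78 for the 3 of Chrna4. The pairs that did not pass were those of Chrnb2 1420744_at with its other probe sets (r = 0.18 and 0.19, adjusted p 0.343 and 0.232). Of 21 pairs of different genes, each by its brightest probe set, 6 passed. Chrm1 and Chrm3 had r = 0.65 and rho = 0.60 (permutation, adjusted p 7.25e-05 for r; 0.57 without the 2 farthest). Chrm3 and Chrna7 had r = 0.56 and rho = 0.60, Chrna7 and Chrnb2 0.55 and 0.49, Chrm1 and Chrna7 0.52 and 0.44, Chrnb2 and Ache 0.48 and 0.55, and Chrm4 and Ache 0.42 and 0.36, with adjusted p from 7.25e-05 to 0.005. With the means of the sets of numbers removed as well, these 6 ran from 0.38 to 0.68. Chrna4 and its partner Chrnb2 had r = 0.22 and rho = 0.27 (adjusted p 0.207 for r).

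In hippocampus the pairs of Chrna7 with Chrm1 and Chrm3 leaned on the array labelled Tg2576 PF-04447943 replicate 1, since they fell from 0.46 to 0.09 and from 0.46 to 0.06 without it. The correlation differed between regions in 3 of 21 pairs, a test added after the data were seen in which region labels were permuted over arrays, and each of the 3 involved Chrna4. Chrm1 and Chrna4 had r = -0.59 in hippocampus and 0.60 in prefrontal cortex (permutation, adjusted p 0.00021), and -0.60 and 0.46 without the arrays that stood apart. Chrm3 and Chrna4 had -0.24 and 0.77 (adjusted p 0.00021), and Chrna4 and Chrna7 had -0.31 and 0.65 (adjusted p 0.00042). Prefrontal means of these 4 genes were lower in numbers 5 to 8 than in 1 to 4, so the test was repeated with the means of these sets removed, and the same 3 of 21 pairs passed. Chrm1 and Chrna4 then had -0.59 and 0.53 (permutation, adjusted p 0.00042), Chrm3 and Chrna4 -0.31 and 0.63 (0.00581), and Chrna4 and Chrna7 -0.45 and 0.42 (0.00189). The smallest p that these permutations can give is 1e-05 before adjustment.

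The 3 genes outside the list with the pattern most like each member were taken by Pearson r over the 64 arrays after removing group means, given here as a description. For Chrna4 they were Cplx3 (0.88), Ccn2 (0.83) and Igsf21 (0.81), and for Chrna7 they were Neto1 (0.87), Ifngr2 (0.83) and Trappc1 (0.82). Chrm3 was most like Kifbp (0.83), Pip4k2c (0.82) and Kcnj3 (0.76), and Chrm1 most like Atp2b1 (0.80), Iqgap2 (0.78) and Ppp3r1 (0.78). Kcnj3 encodes a potassium channel subunit opened by G proteins, and Ppp3r1 the regulatory subunit of calcineurin. Chrnb2 was most like Abcg4 (0.80), Babam1 (0.78) and Ldb3 (0.77), and Chrm4 most like Slc1a2 (0.76), Commd9 (0.76) and Aqr (0.75). Ache was most like Pgm1 (0.76), Ufsp1 (0.76) and Kcnh2 (0.72). Ufsp1 is the neighbour of Ache on the same chromosome, with 0 genes between them and no overlap. Without the 2 arrays that stood apart, these values ran from 0.67 for Chrm3 and Kcnj3 to 0.90 for Chrna4 and Cplx3.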

How the data were processed

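Each sample's total RNA gave labelled cRNA for 1 Affymetrix mouse array. The authors deposited 1 intensity per probe set and array. Per the submitters' processing notes these come from RMA; the sources used here do not give its version, or whether all arrays were normalized together. The values ran from 5.87 to 34088.93, a linear scale, with array medians of 91 to 101, and were converted to log2. Probe sets took symbols from the platform annotation, updated through RefSeq: 34945 had 1 symbol, 932 several, 9160 none, and 64 were controls. No probe set with several symbols was used.

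Groups were compared with limma 3.58.1 in R 4.3.3 (cell means of groups, two-sided, Benjamini-Hochberg over all probe sets tested), over both regions for regional differences and within a region for the transgene and the drug. Correlations used 100000 permutations within groups (Python 3.11.15). The fit was tested on simulated data, where it recovered 81% of regional changes of 0.25 and 6.28% of the calls were false. There 100 probe sets changed at each size, while 68.3% of all probe sets were called in the real data, so recovery there may differ. Members and lists were chosen with earlier results of these data known. Named were every member probe set, Chat, Slc18a3, Slc5a7 and Bche, up to 3 called genes of largest difference per list and direction, and the 3 most like genes of each member. Alternatives were the filter, the unit tested, normalization, prior, weights, covariates, pairing, sets of replicate numbers and each array left out. Same-numbered arrays of the 2 regions correlated in their deviations from -0.26 to 0.66 (median 0.23, with 21 of 32 pairs over 0.1). For 16 of the 32 hippocampal arrays, the best match had their own number. The labels do not state that a number marks 1 mouse, so the main fit did not pair arrays. A shared mouse was not tested, and a run with such pairs is given below. Promoter windows are RefSeq sequences of GRCm38.p6.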

Additional observations from a re-analysis of the deposited data

Results flagged for a closer look

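Of 104 sets of 8 arrays (13 member probe sets in 8 groups), 7 held an array whose gap to the nearest other array, over the whole range of the group, was above Dixon's 95% critical value for 8 samples; chance flags about 1 in 20 such sets. In prefrontal cortex of vehicle wild-type mice, replicate 5 was flagged for 3 genes: Ache at 9.53 (nearest array 8.65), Chrm3 at 5.94 (6.78) and Chrna4 1421203_at at 7.55 (7.88). In prefrontal cortex of wild-type mice given PF-04447943, Chrna4 1456354_at of replicate 1 was 6.98 (6.64) and Ache of replicate 7 was 8.22 (8.52). In hippocampus, Chrna7 1440681_at of Tg2576 PF-04447943 replicate 1 was 8.21 (9.21), and Chrm1 1439611_at of Tg2576 vehicle replicate 5 was 10.67 (10.93).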

How the results depend on the processing

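The 10 calls of the averaged regional comparison became 6 with a filter at the 60th percentile, where 6 member probe sets were tested, 5 of 6 with 1 probe set per gene and 5 of 6 with the mean of a gene's probe sets. In the same order, the calls within pairs became 5, 4 and 5 in vehicle wild-type, 5, 4 and 5 in vehicle Tg2576, 5, 4 and 5 in wild-type given PF-04447943 and 5, 4 and 4 in Tg2576 given PF-04447943. Numbers 1 to 4 alone gave 4 in vehicle wild-type, 5 in vehicle Tg2576 and 2 in Tg2576 given PF-04447943, and numbers 5 to 8 alone gave 4 in the last. With 1 array left out, the averaged count was 9 to 10 and those of the pairs 7 to 9, 8 to 9, 8 to 9 and 6 to 9. Within single pairs, Chrna4 1421203_at lost its call in 8 of 16 such runs and Chrna7 1450299_at in 11 of 16, both in Tg2576 given PF-04447943. Calls on the whole array moved as well, single arrays left out aside. Over all probe sets or genes tested, a number that differed between settings, they ran from 8514 to 24988 in the averaged comparison. For the pairs, in the order above, they ran from 5298 to 12590, 6333 to 17249, 5069 to 14693 and 4944 to 11481.

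Chrnb2 1436428_at reversed to -0.037 (adjusted p 0.483) in numbers 1 to 4. Chrm3 was called there, at -0.27 (adjusted p 0.0246), and gave 0.21 (0.12) in numbers 5 to 8. With the replicate block, which pairs arrays of a number across regions, 9 of 12 were called, without Chrnb2 1436428_at, at 0.07 (0.0617). No filter, median centring and a robust prior also ended that call; the block changed no other call of the averaged comparison. Counts for the transgene and the drug were 0 under every alternative run. On the whole array, calls for the hippocampal drug over both genotypes ran from 0 to 2336, single arrays left out aside. Dim probe sets (Chrm4, Chrnb2 1441837_at in prefrontal cortex, Chat) are limited by signal over background.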
